A study of Mus musculus with 12 samples.

Results

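The 10 elongase and desaturase genes Scd1, Scd2, Elovl1, Elovl2, Elovl3, Elovl5, Elovl6, Fads1, Fads2 and Fads3 were followed in mouse liver with and without Lcorl. They were chosen by name, and all 10 have a row among the 17714 gene rows of the table. The study profiled RNA from the livers of 12 female mice aged 3 weeks, at weaning. Of these, 6 carried a global Lcorl knockout (KO) and 6 were wild type (WT), with no other treatment named. For the strain and for how the allele was made, the sources used here state nothing. Each library has its own animal number, and replicates are called by genotype and a number given in accession order. The targeted transcript checked the labels: Lcorl held 199 to 323 reads in each WT liver, 3 reads in KO 5 and 0 in the other 5 KO livers.

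Long chain fatty acids are built and modified in the endoplasmic reticulum. Elongases of the Elovl family catalyse the first, rate-setting condensation that lengthens an acyl chain, and desaturases place double bonds in it with electrons delivered through cytochrome b5. Scd enzymes place the first double bond of saturated chains and so make palmitoleate and oleate, the main monounsaturated fatty acids of triglycerides. Elovl6 lengthens palmitate, the product of fatty acid synthase, while Elovl1 and Elovl3 act on longer saturated and monounsaturated chains. Fads2, Elovl5, Fads1 and Elovl2 act in turn on the essential dietary fatty acids and lead to arachidonic and docosahexaenoic acid. Fads3 lies in the same gene cluster but is known for acting on other substrates, among them sphingoid bases. It is described alone here, beside 5 genes of saturated and monounsaturated steps and 4 genes of polyunsaturated steps.

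In mouse these genes lie partly together. On GRCm38, Scd2 (chromosome 19, 44293674 to 44306864, plus strand) and Scd1 (44394455 to 44407879, minus strand) are 87.6 kb apart. Fads3 (10041569 to 10060110, plus strand), Fads2 (10062765 to 10101746, minus strand) and Fads1 (10182888 to 10196877, plus strand) form a cluster on the same chromosome. Elovl3 is at 46131897 to 46135694 of chromosome 19 on the plus strand. Elovl6 is on chromosome 3 (129532355 to 129638495, plus), Elovl1 on chromosome 4 (118428093 to 118432953, plus), Elovl5 on chromosome 9 (77917364 to 77984519, plus) and Elovl2 on chromosome 13 (41182381 to 41220405, minus). All are annotated as protein coding in GENCODE M21. Of runs of 50 bases in Scd1 transcripts, 2.97% also occur in Scd2. Between Fads2 and Fads3, 5 such runs are shared, and no other pair shares any, so their reads can mostly be told apart from each other.

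Promoter sequence from RefSeq on GRCm38.p6 matched 6 of the 10 genes: Elovl1, Elovl2, Elovl5, Elovl6, Fads2 and Fads3. The 250 bases before the start are shown for the elongases on which the results below turn, since Elovl6 and Elovl5 fell in KO liver and Elovl2 did not pass the test. They are read 5′ to 3′ on the strand of the gene, at chr3:129532136-129532385 (Elovl6, plus), chr9:77917115-77917364 (Elovl5, plus) and chr13:41220404-41220653 (Elovl2, minus). Capitals mark matches to the motifs named after them.
Elovl6: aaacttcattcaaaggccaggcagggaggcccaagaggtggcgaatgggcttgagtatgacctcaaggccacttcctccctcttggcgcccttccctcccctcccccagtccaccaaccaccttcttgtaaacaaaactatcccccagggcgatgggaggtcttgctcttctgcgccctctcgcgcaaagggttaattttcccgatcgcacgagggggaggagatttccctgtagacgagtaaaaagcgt
Elovl5: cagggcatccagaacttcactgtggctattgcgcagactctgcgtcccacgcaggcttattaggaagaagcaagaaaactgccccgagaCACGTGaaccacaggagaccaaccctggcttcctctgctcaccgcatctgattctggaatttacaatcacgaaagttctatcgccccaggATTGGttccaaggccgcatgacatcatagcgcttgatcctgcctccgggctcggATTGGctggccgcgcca
Elovl2: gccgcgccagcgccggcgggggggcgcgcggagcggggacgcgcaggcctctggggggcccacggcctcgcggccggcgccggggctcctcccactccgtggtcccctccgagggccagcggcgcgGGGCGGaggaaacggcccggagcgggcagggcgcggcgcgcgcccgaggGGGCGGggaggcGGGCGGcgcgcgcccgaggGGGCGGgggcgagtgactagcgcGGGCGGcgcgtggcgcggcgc
Both strands were searched for the sterol regulatory element TCACNCCAC, the NF-Y box CCAAT, the Sp1 box GGGCGG, the E-box CACGTG and the direct repeat bound by liver X receptors, which is AGGTCA repeated after a spacer of 4 bases. Among all 32851 promoter windows of this length, 1.05% hold the first, 33.8% the NF-Y box, 32.7% the Sp1 box, 6.02% the E-box and 0.0152% the direct repeat. The Elovl6 window holds none of these motifs. The Elovl5 window holds 2 NF-Y boxes, whose far ends are 71 and 17 bases before the start, and 1 E-box at 161 bases. The Elovl2 window holds 5 Sp1 boxes and has a GC content of 87.2%, against 55.6% for Elovl5 and a median of 52.4% over all windows. The Fads2 window holds 1 Sp1 box. The Elovl1 window holds 5 Sp1 boxes and 1 NF-Y box, with a GC content of 72%. The Fads3 window holds 2 Sp1 boxes and 2 NF-Y boxes, with a GC content of 74.4%. Elovl1, Fads2 and Fads3 did not pass the test, and a link between motifs and changes was not tested. Neither the sterol element nor the direct repeat was found in the 6 windows.

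Expression is given as normalized read counts, which are reads divided by one factor per library. WT libraries hold 21769795 to 28655120 reads and KO libraries 27692285 to 31296485. The test of genotype was limma on the log2(normalized count + 1) scale, run on all 13569 genes whose mean reached 10. Its two-sided p-values were adjusted over all of these by the Benjamini-Hochberg method. Hepatocyte markers were high in every liver, with sums over 7 genes of 3385710 to 3747770 normalized counts in WT and 3020720 to 3864920 in KO. Fat tissue markers summed to 250 in WT 6, against 5.10 to 28 in the other 11 livers, and Reg1, a pancreatic gene, was 126 in KO 2 and 0 elsewhere.

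All 10 transcripts had a negative log2 change in KO liver, and 4 of them fell past the threshold: Scd1, Elovl6, Elovl5 and Fads1. None rose in limma, edgeR or DESeq2, and 0 were higher at an unadjusted p under 0.05 in any of these tools. Over all genes tested, 2.68% fell past the threshold, 1.75% rose (4.43% in either direction) and 48.2% had a negative change. Of the 5 genes of saturated and monounsaturated steps 2 fell, and of the 4 genes of polyunsaturated steps 2 fell. Without WT 1, WT 3, WT 4, WT 5, KO 1 or KO 4, the genes of these 10 called were Scd1 and Elovl6, and 0 of the 4 polyunsaturated step genes. Calls were lost over the whole table in those fits, with 224 (without KO 4) to 340 (without WT 4) genes called against 601. Elovl5 narrowly missed in them, with a log2 change of −1.30 to −1.13 and adjusted p from 0.0562 to 0.0638 (limma). A difference in calls between the kinds was not tested. The median log2 change, given as a description, was −2.27 for the first kind and −0.87 for the second, against 0.0075 over all genes tested. The first median rests on Elovl3, which is scarce: it was −1.10 with a pseudocount of 10 and −1.51 with a minimum mean of 50, where Elovl3 was not tested. In bulk liver, fewer cells of a type and less RNA per cell cannot be told apart. Scd1 was the gene of these 10 whose KO and WT livers did not overlap, and 1.66% of all genes tested were separated in that direction (2.96% in either). Without WT 6 and KO 2, which hold fat and pancreas transcripts, 6 of the 10 fell (Fads2 and Elovl1 in addition), against 3.75% of all genes.

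**Figure D1:**
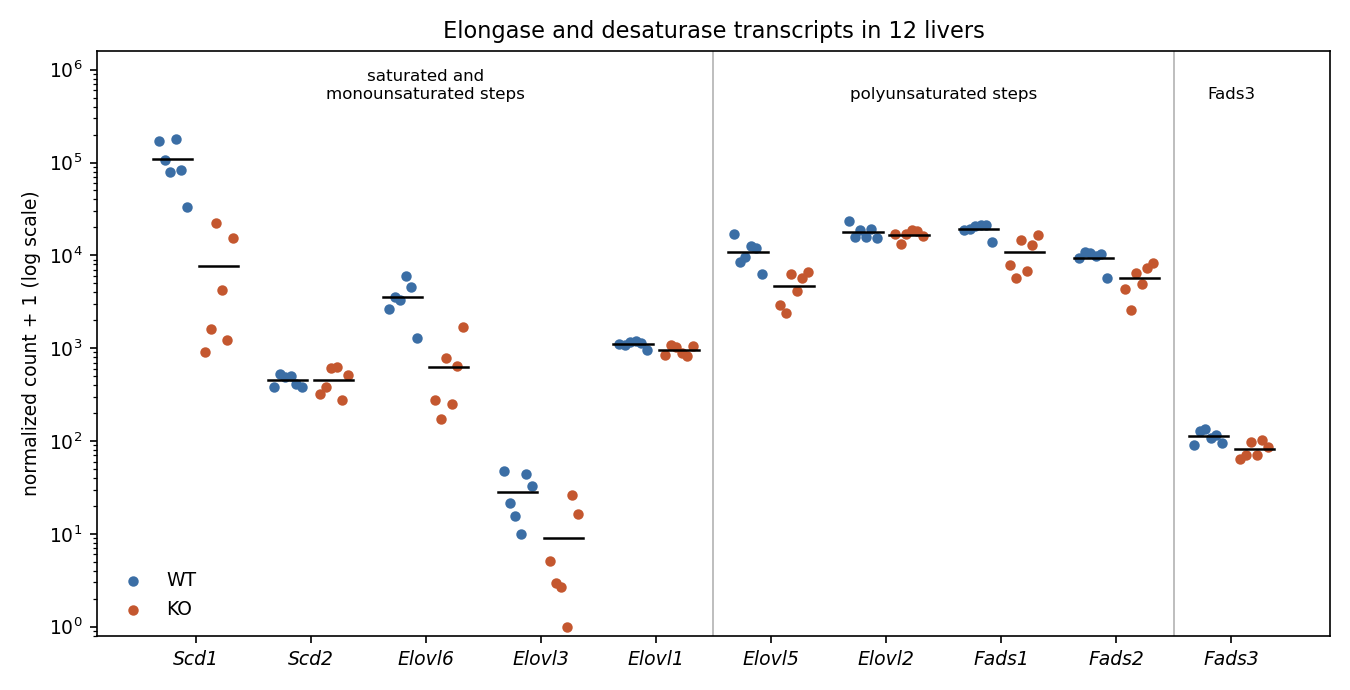
Normalized counts plus 1 on a log axis for the 10 genes, ordered by the kind of step; each point is 1 liver (blue WT, orange KO, n = 6 each) and the black line is the group mean. KO livers reach from 918 to 22205 for Scd1, below every WT liver, while for Scd2 the KO range of 275 to 627 encloses the WT range.

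**Figure D2:**
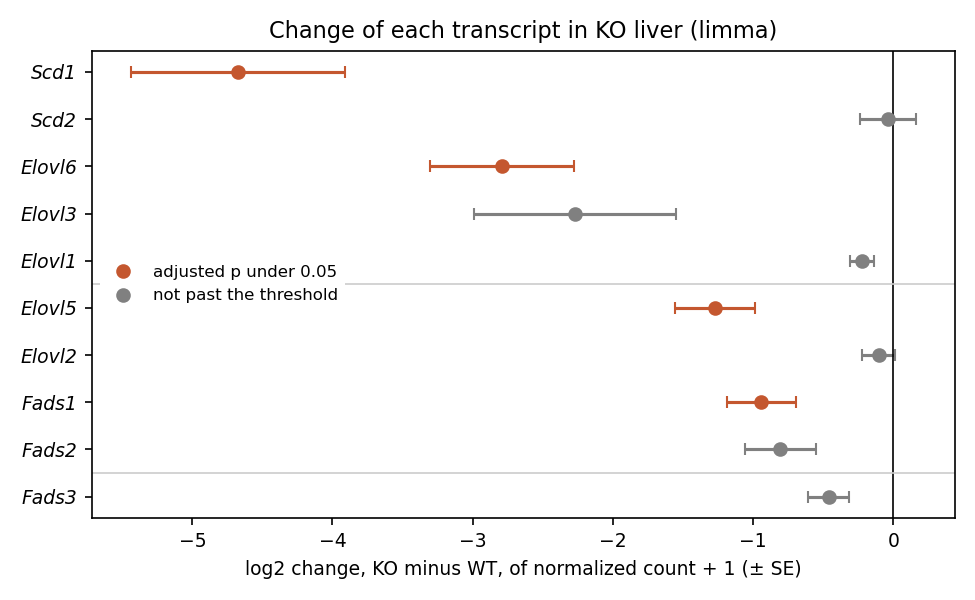
Log2 change of each gene, KO minus WT, on the normalized count + 1 scale, with its standard error from limma; orange marks an adjusted p under 0.05. All 10 values are below 0, from −4.67 for Scd1 to −0.038 for Scd2.

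Scd1, the main stearoyl-CoA desaturase of mouse liver, had the largest change of the 10. It measured 33536 to 180138 normalized counts in WT livers (median 94934) and 918 to 22205 in KO (median 2951). The KO values spread over 24.2-fold, with KO 1, KO 5, KO 2 and KO 4 between 918 and 4280 and KO 6 and KO 3 at 15445 and 22205. The mean in KO was 6.96% of that in WT (log2 change −4.67, SE 0.764, adjusted p = 0.00573, limma). Scd1 took 0.123 to 0.649% of all reads in WT livers and 0.00320 to 0.0834% in KO livers. The change was called in each of the 23 alternative settings (adjusted p from 5.03e-05 to 0.0380), with a log2 change of −3.84 in edgeR and DESeq2, which compare means of counts.

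Scd2, the paralogue that is prominent in brain and in early life, did not share the genotype change of Scd1. It measured 377 to 531 normalized counts in WT livers (median 451) and 275 to 627 in KO (median 450). The KO range enclosed the WT range, with KO 5 and KO 1 below it and KO 3 and KO 4 above it. The log2 change was −0.038 (95% interval −0.46 to 0.39, adjusted p = 0.939, limma), and its sign turned in 5 of 23 alternatives, to at most 0.093. Scd2 therefore took a larger share of the reads of both genes in KO. Its share was 0.218 to 1.13% in WT livers (median 0.496%) and 2.67 to 25.9% in KO livers (median 15.6%). The share was highest in KO 1, at 25.9% where the exact binomial 95% limits, for counting error only, were 23.5 and 28.5%. The log2 ratio of Scd1 to Scd2 was 7.73 ± 0.85 in WT and 3.10 ± 1.56 in KO (SD, n = 6 per genotype), lower in 6 of 6 KO livers than in any WT liver. The difference of −4.64 (SE 0.73) had p = 0.00216 in an exact two-sided permutation test over 924 splits, the smallest it can give, and p = 0.00433 adjusted over 8 ratios. With Scd2 nearly unchanged, this ratio mainly restates the change of Scd1 and is not a separate result. Scd3 and Scd4, the other Scd genes of the mouse, had means of at most 2.33 normalized counts in either genotype and were not tested.

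**Figure D3:**
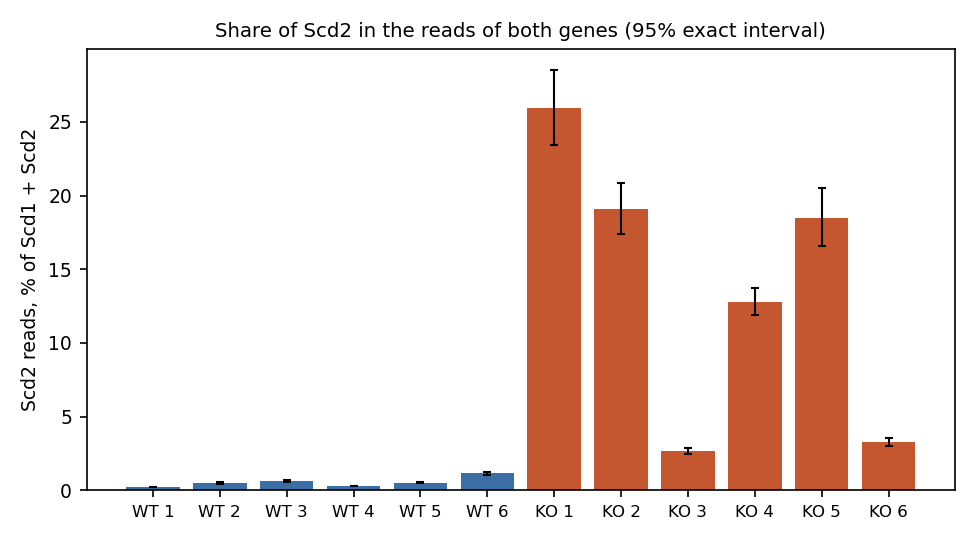
Scd2 reads as a percentage of Scd1 plus Scd2 reads in each liver; bars start at 0 and error bars are 95% exact binomial intervals for counting error. WT livers lie between 0.218 and 1.13%, KO livers between 2.67 and 25.9%.

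Elovl6, which turns palmitate into stearate, a substrate of Scd1, fell 6.93-fold. It measured 1302 to 6032 normalized counts in WT livers (median 3432) and 173 to 1682 in KO (median 454). KO 2, KO 4 and KO 1 were lowest, at 173 to 275, and KO 6 was highest, above WT 6 but below the other 5 WT livers. The log2 change was −2.79 (SE 0.515, adjusted p = 0.0107, limma). In a fit that blocks livers by neighbouring animal numbers it was −2.68 and no longer called (adjusted p = 0.0823). In that setting 1 of the 10 genes, Scd1, was called lower, against 0.715% of all genes tested.

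Elovl3 and Elovl1, the elongases of very long saturated and monounsaturated chains, did not pass. Elovl3 was scarce, with 8.92 to 47.0 normalized counts in WT livers (median 25.9) and 0 to 25.4 in KO (median 3.06). KO 4 had no read and KO 5 lay within the WT range, and the gene passed the filter through its WT level. Its log2 change was −2.27 (SE 0.721, adjusted p = 0.0879, limma). With a pseudocount of 10 the change was −1.10. It was called without KO 5 (adjusted p = 0.0388) or KO 6 (0.0496). Elovl3 and Pitx3, on the opposite strand, share 10 annotated bases, and Elovl1 and Cdc20, also on opposite strands, share 53. Elovl1 measured 960 to 1199 normalized counts in WT livers (median 1130) and 833 to 1080 in KO (median 966), a change of −0.22 (95% interval −0.40 to −0.042, adjusted p = 0.133, limma). KO 5, KO 1 and KO 4 lay below every WT liver and the other 3 KO livers within the WT range.

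Elovl5 and Elovl2 lengthen polyunsaturated chains at successive steps, and their changes differed. Elovl5 measured 6359 to 17126 normalized counts in WT livers (median 10728) and 2367 to 6542 in KO (median 4911). In KO, 5 livers were below every WT liver, and KO 6 at 6542 was just above WT 6 at 6359. The log2 change was −1.27 (SE 0.284, adjusted p = 0.0276, limma), or 2.41-fold lower. The call was lost without WT 1 (adjusted p = 0.0605), WT 3 (0.0562), WT 4 (0.0612), WT 5 (0.0611), KO 1 (0.0638) or KO 4 (0.0636), and with the block of animal numbers (0.110). The change itself stayed between −1.41 and −1.09 in the 12 fits that leave out 1 liver.

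Elovl2, which makes the precursors of docosahexaenoic acid, measured 15380 to 23290 normalized counts in WT livers (median 17267) and 13206 to 18886 in KO (median 16804). KO 2 was below the WT range and the other 5 KO livers were within it. The log2 change was −0.10 (95% interval −0.35 to 0.14, adjusted p = 0.639, limma). The log2 ratio of Elovl2 to Elovl5 was 0.77 ± 0.35 in WT and 1.93 ± 0.54 in KO (SD, n = 6 per genotype). It was higher in 6 of 6 KO livers than in any WT liver, by 1.17 (SE 0.26; exact permutation p = 0.00216, adjusted p = 0.00433). With Elovl2 nearly unchanged, this ratio mainly restates the change of Elovl5 and is not a separate result.

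Fads1, the desaturase that completes arachidonic and eicosapentaenoic acid, measured 14077 to 21413 normalized counts in WT livers (median 20004) and 5651 to 16488 in KO (median 10452). The KO livers parted into KO 2, KO 4 and KO 1, at 5651 to 7870, and KO 5, KO 3 and KO 6, at 13035 to 16488. Of the second 3, KO 3 and KO 6 lay above WT 6. The log2 change was −0.94 (SE 0.246, adjusted p = 0.0478, limma), or 1.92-fold lower. This call was narrow. It was kept without WT 6, KO 3 or KO 6 and lost without any other single liver, with adjusted p from 0.0501 without KO 5 to 0.107 without KO 4. It was also lost with equal totals (0.0549), equal upper quartiles (0.0507), robust moderation (0.0519), no filter (0.0531), edgeR (0.0696) and the block (0.186).

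Fads2, the desaturase of the first polyunsaturated step, had nearly the same pattern without passing the threshold. It measured 5638 to 10736 normalized counts in WT livers (median 10113) and 2586 to 8331 in KO (median 5695). KO 2, KO 1 and KO 4 were below every WT liver, and KO 3, KO 5 and KO 6 lay between WT 6 and the other 5 WT livers. The log2 change was −0.80 (SE 0.255, adjusted p = 0.0876, limma). It passed without WT 6 (0.0397), without KO 6 (0.0433) and with DESeq2 on the recovered reads (0.0349). The log2 ratio of Fads1 to Fads2 was 1.05 ± 0.16 in WT and 0.91 ± 0.25 in KO (SD, n = 6 per genotype). The difference of −0.14 (SE 0.12) did not pass (exact permutation p = 0.314, adjusted p = 0.314). Fads3, at 90.5 to 134 normalized counts in WT livers (median 111) and 63.2 to 101 in KO (median 78.1), had a log2 change of −0.46 (SE 0.145, adjusted p = 0.0852, limma). KO 1, KO 2, KO 4 and KO 6 were below every WT liver. In the authors' deposited table, 6 of the 10 genes have an adjusted p under 0.05, namely the 4 above with Fads2 (0.0349) and Fads3 (0.0442). Its log2 fold changes are smaller than those of DESeq2 on the recovered reads. They are −0.096 for Scd1 and −2.21 for Elovl6, against −3.84 and −2.50. For Scd1 the deposited error is 0.191, yet the deposited DESeq2 p is 4.68e-07. The deposited change is therefore not the estimate that this p-value tests, and it does not mean that Scd1 hardly changed. DESeq2 on the recovered reads called those 6, all lower, against 4.76% of the genes with an adjusted p (8.68% in either direction). Its p-values match the deposited ones to within 2.05e-06, so it repeats the authors' test and is not a second one.

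Ratios were also taken within each liver, which removes what scales both genes of a pair alike. Of the saturated and monounsaturated kind, the pairs that cross the kinds hold Scd1 and Elovl6, the genes called lower. Scd2 and Elovl1 were not paired with polyunsaturated step genes, and their log2 changes, −0.038 and −0.22, were smaller than those of Fads2, Fads1 and Elovl5. These ratios therefore compare named genes, not the kinds of step. Scd1 over Fads2 had a log2 value of 3.37 ± 0.68 in WT and −0.50 ± 1.71 in KO, and Scd1 over Fads1 one of 2.32 ± 0.75 and −1.41 ± 1.64 (SD, n = 6 per genotype). Both were lower in 6 of 6 KO livers than in any WT liver, with differences of −3.87 and −3.73 (SE 0.75 and 0.73; exact permutation p = 0.00216, adjusted p = 0.00433 for each). Every ratio with Scd1 holds the same Scd1 values, so these tests are not independent of each other. KO 5 had the lowest Scd1 over Fads2, −2.58, with Scd1 at 1213 and Fads2 at 7278 normalized counts. Elovl6 over Elovl5 was −1.70 ± 0.65 in WT and −3.22 ± 0.73 in KO (SD, n = 6 per genotype; difference −1.52, SE 0.40, exact permutation p = 0.00866, adjusted p = 0.0115). It was lower in 5 of 6 KO livers than in any WT liver, and KO 6 lay within the WT range. Elovl6 over Elovl2 differed by −2.69 (SE 0.58, exact permutation p = 0.00433, adjusted p = 0.00693), again with 5 of 6 KO livers below every WT liver. With Elovl2 nearly unchanged, that ratio mainly restates the change of Elovl6. Within the saturated kind, Elovl3 over Elovl1 had a log2 value of −5.49 ± 0.95 in WT against −7.54 ± 1.80 in KO (SD, n = 6 per genotype). Elovl3 was kept through its WT level and had no read in KO 4, and the difference of −2.05 became −0.88 with a pseudocount of 10 (exact permutation, adjusted p = 0.0816), so its size is set by the pseudocount and no call is drawn from it.

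**Figure D4:**
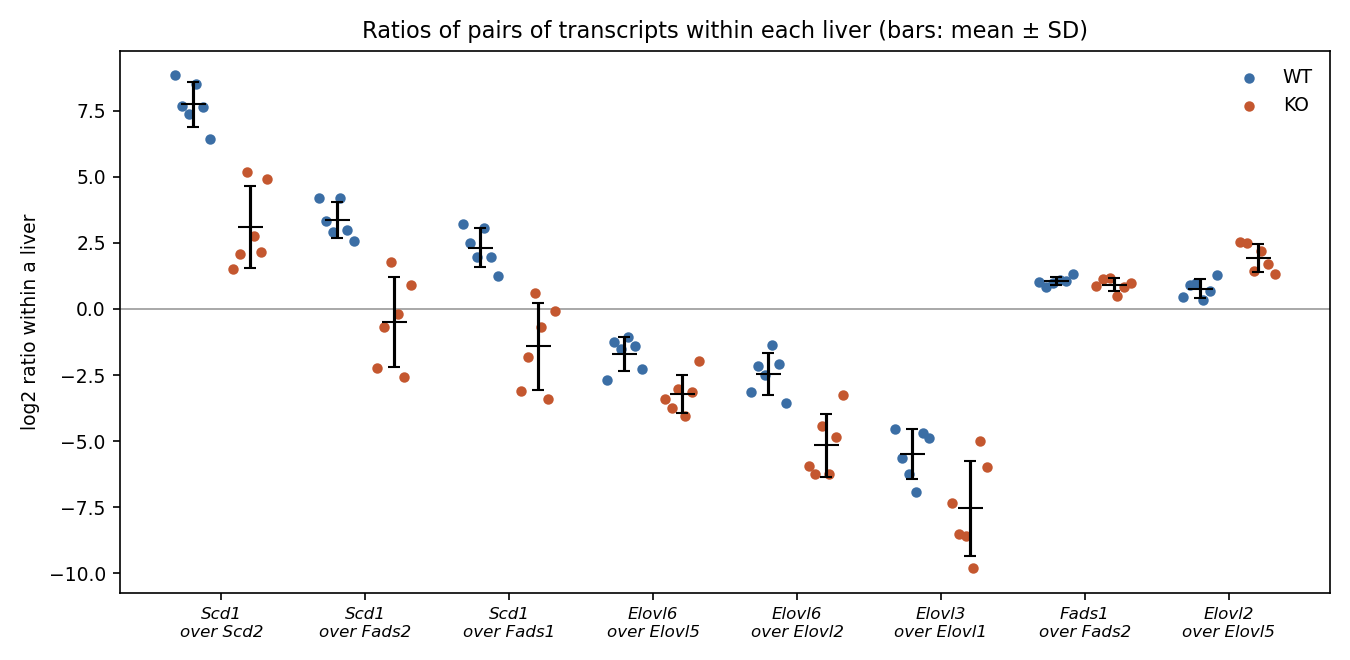
Log2 ratio of 2 transcripts within each liver for the 8 pairs tested (blue WT, orange KO, n = 6 each; bars are mean ± SD). KO livers lie apart from WT livers for Scd1 over Scd2, Fads2 and Fads1 and for Elovl2 over Elovl5, and overlap them for the other 4 pairs.

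Averaged as the mean log2 difference from the WT mean, the 5 saturated and monounsaturated step genes were at −2.0 ± 0.77 in KO and the 4 polyunsaturated step genes at −0.78 ± 0.48 (SD, n = 6). In each KO liver the first mean was the lower, with a difference from −1.61 in KO 4 to −0.51 in KO 6. The first mean includes Elovl3, which is scarce and had no read in KO 4. The size of these differences and the order of the KO livers therefore depend on the pseudocount. It also includes Scd2 and Elovl1, whose log2 changes were −0.038 and −0.22, so it does not stand for each gene of its kind. In WT livers the difference between both means lay from −0.19 to 0.13. KO 2 had the lowest polyunsaturated mean, −1.54, and KO 6 the highest of the KO livers, −0.29, above the −0.52 of WT 6. WT 6 was the lowest WT liver for 7 of the 10 genes, and it is the liver that held fat tissue transcripts. Fat also expresses Scd1 and several of these elongases, and the part of those cells in its values was not tested. These means describe the lists and carry no test.

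**Figure D5:**
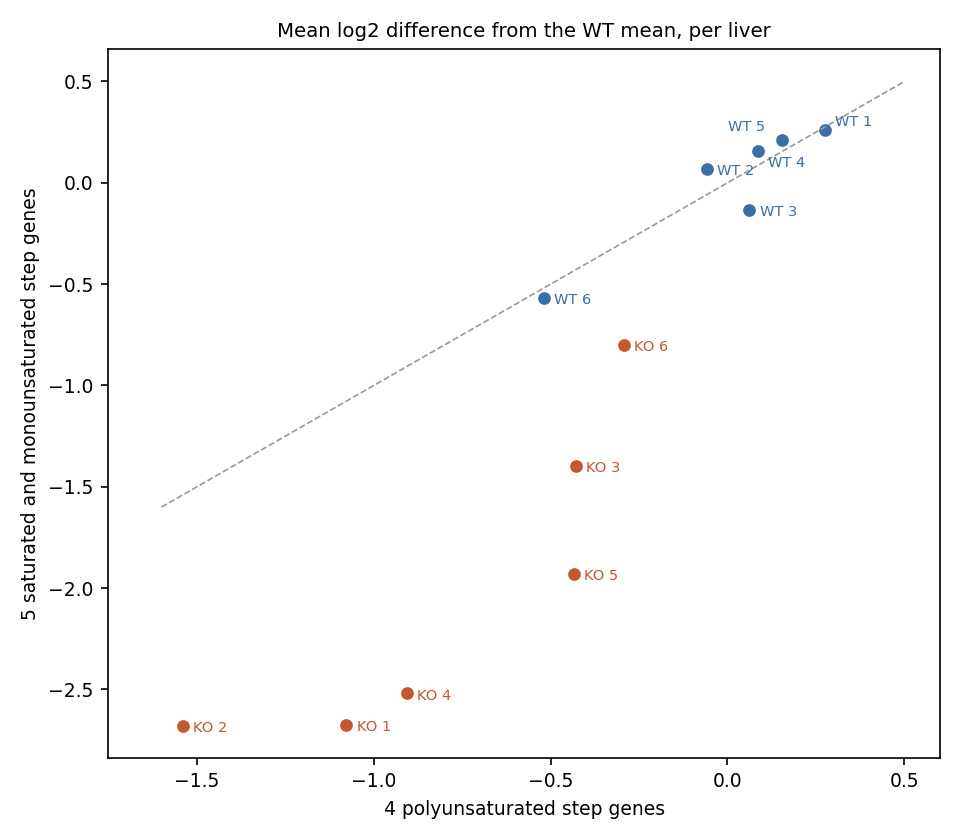
Mean log2 difference from the WT mean over the 5 saturated and monounsaturated step genes (vertical) against that over the 4 polyunsaturated step genes (horizontal), 1 point per liver (blue WT, orange KO); the dashed line marks equal values. All 6 KO livers lie below the line, with differences from −1.61 to −0.51, and WT 6 sits apart from the other 5 WT livers. The vertical mean includes the scarce Elovl3, so its size depends on the pseudocount.

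The order of levels changed with genotype. Per kilobase of annotated exon, Scd1 led in WT with 22350 ± 11685 normalized counts, above every other member in 6 of 6 livers. Elovl2 (4544 ± 773), Fads1 (3999 ± 571), Elovl5 (3118 ± 1069) and Fads2 (2859 ± 581) followed (SD, n = 6), and each of these neighbours overlapped the next. Elovl6 (555 ± 252) and Elovl1 (408 ± 31.5) overlapped as well, while Scd2 (82.2 ± 12), Fads3 (29.4 ± 4.58) and Elovl3 (14.0 ± 7.83) came after them without overlap. In KO, Elovl2 led with 4206 ± 499 and was above Fads1 (2231 ± 938) within each of 6 livers, though their ranges overlapped. By mean, Fads2 (1715 ± 639), Scd1 (1556 ± 1844) and Elovl5 (1322 ± 506) came next and overlapped. The place of Scd1 rests on KO 3 and KO 6, where it was high. Fads2 was above Scd1 in 4 of 6 KO livers, and Scd1 was above Elovl5 in only 2 of 6. Elovl1 (351 ± 41.4) stood above Elovl6 (98.4 ± 88.2) in 6 of 6 KO livers, whereas Elovl6 was above Elovl1 in 5 of 6 WT livers. Elovl6 and Scd2 (83.3 ± 27.4) overlapped in KO.

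Between livers of one genotype, some members moved together. With genotype means removed, Fads1 and Fads2, the desaturases of one cluster, had r = 0.909 over 12 livers (permutation p = 9.6e-04, adjusted p = 0.00768) and rho = 0.902 (permutation p = 0.00487, adjusted p = 0.0390). Without the 2 livers farthest from the median, KO 2 and KO 6, r was 0.821. It was 0.942 within WT and 0.921 within KO (n = 6 each). In WT, WT 6 lay far below the other WT livers for both genes. Its Fads1 was 14077 normalized counts against 18776 to 21413, and its Fads2 5638 against 9374 to 10736. The r within WT was not computed without WT 6, so it may rest on that liver. Elovl6 and Elovl5 had r = 0.773 (permutation p = 0.00880, adjusted p = 0.0352; 0.663 without KO 2 and KO 6) and rho = 0.706 (permutation p = 0.0230, adjusted p = 0.0903), which did not pass. Scd1 and Scd2, whose genotype changes differed, had r = 0.750 (permutation p = 0.0391, adjusted p = 0.0783; 0.670 without KO 3 and KO 6) and rho = 0.755 (permutation p = 0.0338, adjusted p = 0.0903), with r = 0.324 within WT and 0.833 within KO (n = 6 per genotype). Elovl2 and Elovl5 had r = 0.639 (permutation p = 0.0283, adjusted p = 0.0754) and rho = 0.587 (permutation p = 0.0590, adjusted p = 0.118), and without WT 1 and KO 2 r was 0.325. Scd1 and Fads2 had r = 0.566 (permutation p = 0.122, adjusted p = 0.166) and rho = 0.434 (permutation p = 0.232, adjusted p = 0.310). Elovl6 and Elovl2 had r = 0.152 (permutation p = 0.638, adjusted p = 0.638) and rho = 0.105 (permutation p = 0.758, adjusted p = 0.758). In all 8 pairs were computed, with p-values adjusted over them, and neither coefficient passed in pairs other than Fads1 with Fads2, apart from the r of Elovl6 with Elovl5. Since the livers share a scaling and differ in cell makeup, these values describe them only.

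The genes most like 4 members were listed by the same deviations over 12 livers among 10079 genes with a mean of at least 100. For Elovl6 they were Acss2 (acetyl-CoA synthetase, r = 0.980), Pstpip2, Sc5d (a sterol desaturase), Fasn (fatty acid synthase) and Hsd17b12 (r = 0.945), of which Acss2, Fasn and Hsd17b12 fell in KO. For Fads2 they were Mpp4 (r = 0.936), Lsr, Dnase1l3, Arsb and Coro2b (r = 0.920), of which Mpp4 and Arsb fell. For Scd1 they were Neurl1b (r = 0.938), Mtss1l, Fen1, Sept8 and Ttf2 (r = 0.870), of which Neurl1b fell. For Elovl2 they were Hnrnpa1 (r = 0.912), Slc16a1, Smim8, Tead2 and Lancl1 (r = 0.831), none of which passed the test. Chosen as the highest of so many, these coefficients are given with no p-value.

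Genes that supply the substrate fell with Scd1 and Elovl6. Of 10 tested genes of fatty acid supply, 8 fell, against 2.68% of all genes tested, and 2 did not pass. The median log2 change of the list was −1.85. The genes with the smallest p were Me1, the NADPH-making malic enzyme, Acacb and Acaca, which make malonyl-CoA, the unit that elongases add, and Thrsp. Their log2 changes were −2.20, −3.11, −1.42 and −5.40 (adjusted p = 0.00181, 0.00317, 0.00442 and 0.00743, limma). Fasn, which makes palmitate, had a mean of 30710 ± 17232 normalized counts in WT livers against 6383 ± 4506 in KO livers (SD, n = 6 per genotype; log2 change −2.39, adjusted p = 0.0173, limma).

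Of 6 tested genes for the other enzymes of the elongation cycle, 3 fell, against 2.68% of all genes tested, and 3 did not pass. The median of the list was −0.28. Those that fell were the ketoreductase gene Hsd17b12 (−0.73, adjusted p = 0.0226), the dehydratase gene Hacd1 (−0.46, adjusted p = 0.0103) and the enoyl reductase gene Tecr (−0.53, adjusted p = 0.0346, limma). Of 5 tested genes that pass electrons to desaturases, Cyb5r3, the cytochrome b5 reductase, fell 1.47-fold (adjusted p = 0.00935, limma), with 6 of 6 KO livers below every WT liver. Cyb5a, cytochrome b5 itself, had a mean of 22401 ± 3565 normalized counts in WT livers against 26048 ± 6295 in KO livers (SD, n = 6 per genotype; adjusted p = 0.465, limma).

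Further along, 1 of 7 acyl-CoA synthetase genes fell, Acsl5 (1.91-fold, adjusted p = 0.0274, limma), where 2.68% of all genes tested fell. Of 18 tested genes of polyunsaturated acyl transfer and peroxisomal shortening, 2 fell and 16 did not pass. They were Mfsd2a, which carries lysophospholipids with docosahexaenoic acid (6.73-fold, adjusted p = 0.0147), and Abcd3, a peroxisomal transporter gene (1.33-fold, adjusted p = 0.0242, limma). Lpcat3, which places polyunsaturated chains in phospholipids, had a log2 change of −0.35 (adjusted p = 0.0746, limma). Of 7 tested genes of ceramide synthesis (Cers2, Cers4, Cers5, Cers6, Sptlc1, Sptlc2 and Kdsr), 0 passed in limma. Of 3 tested genes among the other Elovl, Fads and dihydroceramide desaturase genes, 0 passed in limma. In each of both lists 1 gene had an unadjusted p under 0.05, and 0 passed in edgeR and 0 in DESeq2. Fads6 had a log2 change of 0.29 (adjusted p = 0.122, limma).

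Of 27 regulators and sterol-responsive genes, 1 fell and 1 rose, with a median log2 change of −0.097. Over all genes tested, 2.68% fell and 1.75% rose, so these counts do not set the list apart. Mlxipl, which encodes the carbohydrate response factor ChREBP, fell from 6549 ± 1254 to 3752 ± 528 normalized counts (SD, n = 6 per genotype; log2 change −0.79, adjusted p = 0.00617, limma), with 6 of 6 KO livers below every WT liver. Pparg, a lipid storage factor of fat cells, rose 1.82-fold (adjusted p = 0.0244, limma), and 5 of 6 KO livers were above every WT liver. Srebf1, whose product activates Scd1, Elovl6 and Fads genes, had a log2 change of −0.62 (SE 0.258, adjusted p = 0.174, limma), and that gene row does not separate its isoforms. Srebf2 (−0.34, adjusted p = 0.431), Insig1 (−1.05, adjusted p = 0.223) and Insig2 (−0.25, adjusted p = 0.607) did not pass, nor did the nuclear receptor genes Nr1h3 (0.031, adjusted p = 0.853) and Ppara (0.26, adjusted p = 0.269, limma).

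The 3 KO livers that were lowest for Elovl5, Elovl6, Fads1, Fads2 and Fads3 were KO 1, KO 2 and KO 4 in each case. The other 5 members had other lowest livers: KO 1, KO 2 and KO 5 for Scd1 and Scd2, KO 2, KO 3 and KO 4 for Elovl3, KO 1, KO 4 and KO 5 for Elovl1, and KO 1, KO 2 and KO 6 for Elovl2. KO 1, KO 2 and KO 4 also had the lowest Insig1 of all 12, at 1569 to 3645 normalized counts, against 5057 to 21598 in WT and 7739 to 11885 in the other 3 KO livers. Sqle, a cholesterol synthesis enzyme singled out after its values were seen, was 151 to 159 in those 3, against 3779 to 5167 in WT and 3282 to 6021 in the other 3 KO livers. Srebf1 was lowest in KO 5, at 3543, then in KO 2, at 4796, and KO 6, at 6983, all below the WT range of 7443 to 14249. It was within that range in KO 1 at 8070, KO 4 at 8906 and KO 3 at 9432. Scd1 was low in KO 5 too, at 1213, where Insig1 was 7739 and Sqle 3691. The part of sterol-responsive control in the members' values was not tested.

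Markers of other liver cells gave these values beside the members. Of 6 stellate cell markers, 1, Lum, fell, and their sum was 11608 to 15140 normalized counts in WT and 8514 to 12965 in KO. Kupffer cell markers summed to 14077 to 25446 in WT and 18039 to 25426 in KO, endothelial markers to 5233 to 8460 and 3548 to 7261, and cholangiocyte markers to 1813 to 2523 and 1240 to 2240. Erythroid markers summed to 5774 to 30668 in WT and 5099 to 17456 in KO. Of the 37 markers tested, 1, Lum, passed in limma, where 4.43% of all genes tested passed. At an unadjusted p under 0.05 were 8 markers, Lum among them, against 23.4% of all genes tested. Of the markers, edgeR called 0 of 37 and DESeq2 called 2 of 44. Their part in the results was not tested.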

How the data were processed

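Liver RNA libraries were made with a total RNA kit, per the labels. Tools listed in the submitters' processing notes, with no role or version, are STAR, featureCounts, FastQC and DESeq2, and the build listed is mm10. The sources used here do not give the annotation, strand setting or filters. The authors deposited normalized counts (a signal: reads divided by 1 factor per library) for 12 livers. They also deposited a table of their comparison with log2 fold changes and p-values. All values above 0 were whole multiples of 1 read (100% within 0.001 reads), so reads were recovered. Precision is limited by the 6 livers per genotype. Depth limits it as well for Elovl3, with 0 to 44 reads per liver, and may do so for Fads3, with 61 to 137. The share of counting error was not computed.

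limma 3.58.1 (R 4.3.3) with a mean-variance trend was fitted to log2(normalized count + 1) over 13569 genes with a mean of at least 10, with no covariate, and p-values were adjusted by Benjamini-Hochberg (threshold 0.05). Fold changes on that scale understate changes of low genes. edgeR 4.0.16 and DESeq2 1.42.0 on recovered reads, other pseudocounts, filters and scalings, a block of animal numbers and leaving out livers were alternatives. Ratios were tested by exact permutation (SciPy 1.17.1), correlations by 100000 draws within genotype. The fitting was tested on simulated counts whose spread was taken from the WT livers. Of changed genes, 46.3% were recovered at 1.5-fold, 83.6% at 2-fold and 98.5% at 4-fold, and 6.75% of calls were false. A wider spread in KO livers, as seen for Scd1, was not simulated. Promoter and gene coordinates are from GRCm38.

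Members and lists were chosen with earlier results of these data known. Named genes were all members, Lcorl, up to 4 called genes per list by smallest p, 7 regulators (Srebf1, Srebf2, Mlxipl, Nr1h3, Ppara, Insig1 and Insig2) and the 5 genes most like each of 4 members. Fasn, Cyb5a, Lpcat3, Fads6, Sqle and Reg1 were added after their values were seen.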

Additional observations from a re-analysis of the deposited data

Results flagged for a closer look

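In 2 of 36 groups of 6 livers, 1 value lay far from the others by Dixon's criterion at 95%, and chance alone marks about 1 group in 20. Both values belong to WT 6. Its Fads1 level was 14077 normalized counts, where the other 5 WT livers measured 18776 to 21413. Its Fads2 level was 5638 normalized counts, where the other 5 measured 9374 to 10736. Without WT 6, Fads1 was still called (adjusted p = 0.0343, limma) and Fads2 passed (adjusted p = 0.0397, limma). WT 6 also held Adipoq at 53.4 normalized counts, and the part of fat tissue in its Fads1 and Fads2 values was not tested.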

How the results depend on the processing

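Scd1 was called lower in all 23 alternatives, and 7 of the 8 ratios kept their direction and their side of the threshold in all 15 run for them. The count of genes called, 601, was 1323 with DESeq2, 158 with the block of neighbouring animal numbers, 913 without WT 6 and KO 2, and 224 to 932 when 1 liver was left out (lowest without KO 4, highest without WT 6). The count of members called lower, 4, was 1 with that block and 2 to 6 when 1 liver was left out. It was 2, Scd1 and Elovl6, without WT 1, WT 3, WT 4, WT 5, KO 1 or KO 4. The median of the saturated and monounsaturated steps, −2.27, was −1.10 with a pseudocount of 10 and −1.51 with a minimum mean of 50, and −2.74 to −1.80 when 1 liver was left out. The Elovl3 over Elovl1 difference was −0.88 (exact permutation, adjusted p = 0.0816) with a pseudocount of 10, −1.73 (0.127) without WT 6 and KO 2, and −2.56 to −1.59 when 1 liver was left out. The Scd2 change turned to 0.023 in edgeR, 0.019 in DESeq2, 0.013 without WT 2, 0.049 without KO 1 and 0.093 without KO 5, with −0.14 the lowest over all alternatives. The cause of these shifts was not tested. No paired analysis was possible because the labels give the genotypes no shared replicate numbers. The block used runs of neighbouring animal numbers, which hold the genotypes unevenly. Elovl3, with 0 to 47.0 normalized counts per liver, is the member whose value depth limits most.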
